A study of Nicrophorus vespilloides with 24 samples.

Results

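Males of the burying beetle *Nicrophorus vespilloides* that were caring alone for larvae were set against mated males that had no brood, and the change was measured at every locus of the head transcriptome. The comparison used 4 of the 24 libraries of the series, 2 of caring uniparental males and 2 of their controls, and 9648 of the 11403 loci in the deposited tables had enough counts to be tested. Caring uniparental males were collected on a mouse carcass close to their larvae, after the mate had been taken away so that the male raised the brood alone. Uniparental control males had been paired and had mated, and they received no carcass. This control group belonged to the uniparental treatment, and biparental males had a control group of their own. Each library was a pool of 10 beetles aged 21 days after eclosion. Beetles of both groups were put into single containers when they were removed, and heads were taken a day later, so the caring males had by then been away from carcass and larvae. Whether the time apart changed levels was not tested. The 2 libraries of a group were separate pools. The labels name the tissue as brain, while the methods describe whole heads, which also hold fat body and connective tissue, and fewer cells of a type and less RNA per cell cannot be told apart in such a pool. Caring males had a carcass and larvae and controls had neither, so contact with larvae, contact with the carcass and feeding on it cannot be told apart. The methods do not say whether control males also lost their mate. Loss of the mate may therefore be a further difference that cannot be told apart from these.

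Burying beetles raise their larvae on the body of a small vertebrate. A parent strips and shapes the carcass, coats it with oral and anal secretions, defends it against microbes and competitors, and feeds the larvae with regurgitated, partly digested flesh, so the head of a caring parent works on digestion, detoxification, smell and immune defence as well as on behaviour. Either parent can raise a brood alone. The head also holds fat body, the insect tissue that stores lipid and makes blood proteins, among them lipid carriers and, in females, the yolk precursor vitellogenin.

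Reads were assembled without a genome, and overlapping contigs were joined into what is here called a locus. Names come from each locus's best blast match in another arthropod, most often the flour beetle *Tribolium castaneum*, so a name gives a likeness and roles below are those of the matched protein. Names were at hand for 866 loci, of which 825 were tested. These are the loci chosen by the study for differing with care in the same libraries, so counts within named lists are not independent evidence of a direction. Levels are CPM, reads scaled to a common library size with edgeR's TMM factors, and a log2 fold change is caring over control. A locus was called higher or lower at an adjusted p under 0.05 in the quasi-likelihood test of edgeR, adjusted by the Benjamini-Hochberg method over all 9648 loci, and every adjusted p below comes from that test.

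The 4 libraries held 17340698 to 23906173 counts each, within the range of 14647691 to 23906173 over all 24. The median absolute log2 difference between the 2 libraries of a group was 0.119 in caring males and 0.171 in controls. Control replicate 1 stood apart at loci of egg yolk. The 10 vitellogenin loci summed to 53.3 and 86.1 CPM in the caring libraries, against 6590 CPM in control replicate 1 and 190 CPM in control replicate 2. For scale, the same sum was 222384 and 263073 CPM in the control females of the uniparental treatment. Of the 12 loci at 10 CPM or more that differed at least 4-fold between the 2 control libraries, 11 were 9 of the vitellogenin loci and a pair of loci that followed them. The 12 other loci, chosen as far higher in females than in males among biparental controls, had a median log2 difference of 0.10 between control replicates 1 and 2 and a range of -1.39 to 2.08, with medians of 0.482 and 0.247 CPM there and 3.96 CPM in control females. The vitellogenin Locus_C911252 in control replicate 1 was at 2.62% of its mean in control females of the uniparental treatment. At the median level of the 12 other loci, a share of that size would be too small to see. The source of the yolk RNA in control replicate 1 was not tested, and calls without that library are given below.

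Caring males differed from controls at 482 of the 9648 loci, which is 5% of those tested. At 210 loci (2.18%) caring males were higher and at 272 (2.82%) lower. The median log2 change was 1.13 over the higher loci and -0.83 over the lower loci. Among the 199 higher loci with more than 3 reads in controls the change ranged from 0.31 to 8.27, and among the 269 lower loci with more than 3 reads in caring males from -7.24 to -0.37. Beyond these, fitted values depend on the small count added before taking logs. The median over all loci tested was 0. Among the called loci, 115 were at least 2-fold higher (1.19% of those tested) and 94 at least 2-fold lower (0.974%), and at 4-fold the numbers were 56 (0.58%) and 23 (0.238%). The 2 caring libraries lay outside the range of the 2 control libraries at 481 of the 482 called loci, and at 5313 of all 9648 (55.1%).

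**Figure D1:**
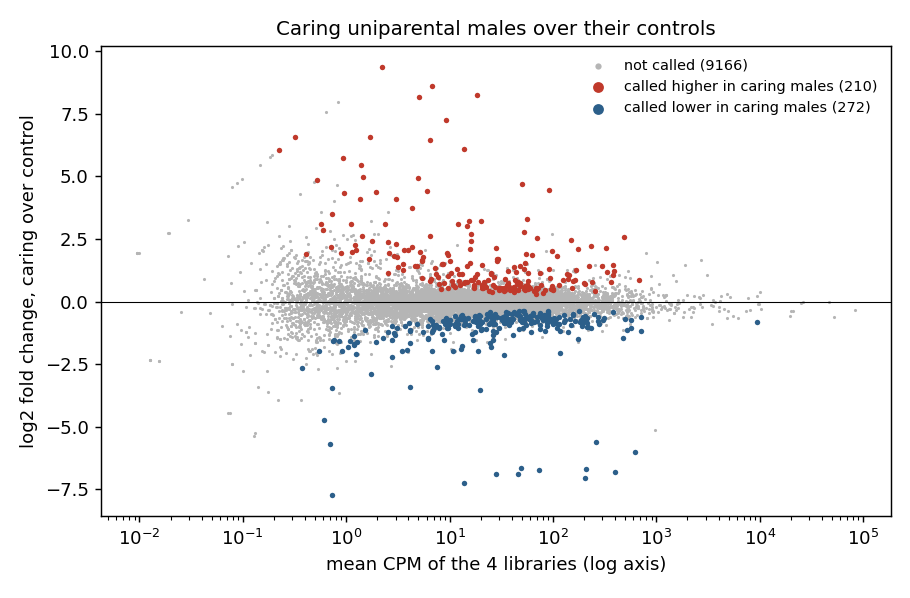
Log2 fold change of caring over control uniparental males (vertical axis) against mean abundance in CPM on a log axis (horizontal axis), with each point a locus. The 210 called higher loci and the 272 called lower loci are coloured. Called changes come as near to 0 as 0.31 and -0.37, and some uncalled loci lie far out, such as Locus_3250 at -5.15. The median over all loci tested is 0. The end points at 9.36 and -7.72 are fitted values of loci with no reads in 1 group and depend on the count added before taking logs.

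The number of calls rested on few libraries. It was 159 without caring replicate 1, 87 without caring replicate 2, 171 without control replicate 2 and 75 without control replicate 1, in fits where the lone library of a group was taken to vary as the other groups do. The balance also moved, with 121 higher and 38 lower loci without caring replicate 1, 51 and 36 without caring replicate 2, 60 and 111 without control replicate 2, and 26 and 49 without control replicate 1. All 482 kept their sign in each of these fits. The groups did not overlap at 481 of them, where leaving out a library could hardly reverse the direction, so the kept sign adds no support. The call was kept in every fit at 35 loci, 20 of them higher and 15 lower. Among these loci are Locus_26800, Locus_29626, Locus_C910314, Locus_9106, Locus_9275, Locus_14169, Locus_C912944, Locus_C912054, Locus_18689, Locus_15845, Locus_73045, Locus_17037, Locus_47332 and Locus_C915444. Every other called locus described below lost its call without at least 1 of the 4 libraries.

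The 35 loci that passed without any single library included enzymes of sugar, ester and amino acid metabolism. Locus_26800, like the precursor of a beta-glucosidase, an enzyme that releases glucose from plant and other sugar conjugates, was at 10.0 and 17.1 CPM in caring males, against 0.0508 and 0 CPM in controls, where it had a single read in all. The ratio of the summed levels was 484, with a 95% counting interval of 86.6 to 19146, and the fitted log2 change was 8.61 ± 0.73 (SE, adjusted p = 6.34e-05). Locus_29626, like a pheromone-degrading esterase, was at 5.04 and 3.86 CPM in caring males and had no reads in either control. Against a floor of 3 counts in each control library it was at least 26.3-fold higher (adjusted p = 0.0014). Both were close to absent from heads of males without a brood.

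Locus_C910314, like kynurenine/alpha-aminoadipate aminotransferase, a mitochondrial enzyme that breaks down tryptophan and lysine products, was at 791 and 858 CPM in caring males, against 138 and 138 CPM in controls (log2 change 2.58 ± 0.33, adjusted p = 0.000695). Locus_9106, like methionine aminopeptidase, which trims the first methionine from new proteins, was at 398 and 374 CPM in caring males and at 71.0 and 96.6 CPM in controls (2.21 ± 0.32, adjusted p = 0.00175). Locus_9275, like aromatic amino acid decarboxylase, the step that makes dopamine and serotonin and that also supplies dopamine for cuticle tanning, stood at 11.2 and 14.3 CPM against 4.77 and 4.33 CPM in controls (1.48 ± 0.20, adjusted p = 0.000854). The 3 loci rose 5.98-, 4.61- and 2.79-fold in this order, with replicate values close together. A second locus of the decarboxylase, Locus_16977, was not called, with 6.95 and 4.81 CPM in caring males and 2.34 and 2.16 CPM in controls (1.38 ± 0.57, adjusted p = 0.177).

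Locus_14169, like giwi, a Piwi-family protein that in other animals binds small RNAs that silence transposons, was at 67.5 and 105 CPM in caring males and at 24.4 and 22.1 CPM in controls (1.89 ± 0.26, adjusted p = 0.00119). Locus_C912944, like the product of the fly gene CG5065, was at 26.3 and 26.4 CPM against 2.59 and 3.90 CPM (3.03 ± 0.38, adjusted p = 0.000639). Among loci with no informative name, Locus_C912054 had 16.5 and 9.26 CPM in caring males and 0.152 and 0.124 CPM in controls (6.47 ± 0.65, adjusted p = 6.34e-05), and Locus_18689 had 14.4 and 22.1 CPM against 0.0508 and 0.186 CPM (7.27 ± 1.04, adjusted p = 0.00148). The groups did not overlap at any of these loci, as at 481 of the 482 called loci.

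The smallest adjusted p of the comparison belonged to a lower locus. Locus_15845, like an organic cation transporter, a membrane carrier of small charged molecules, was at 7.44 and 7.92 CPM in caring males and at 26.8 and 33.0 CPM in controls (-1.96 ± 0.18, adjusted p = 5.61e-05). Locus_73045, like an amidase, was at 13.97 and 11.1 CPM in caring males and at 47.9 and 62.8 CPM in controls (-2.14 ± 0.30, adjusted p = 0.0014). Locus_17037, with no characterized match, was at 50.8 and 40.0 CPM in caring males, against 172 and 205 CPM in controls (-2.05 ± 0.27, adjusted p = 0.000757). The caring level of these 3 was 0.257, 0.226 and 0.241 of the control level in this order.

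**Figure D2:**
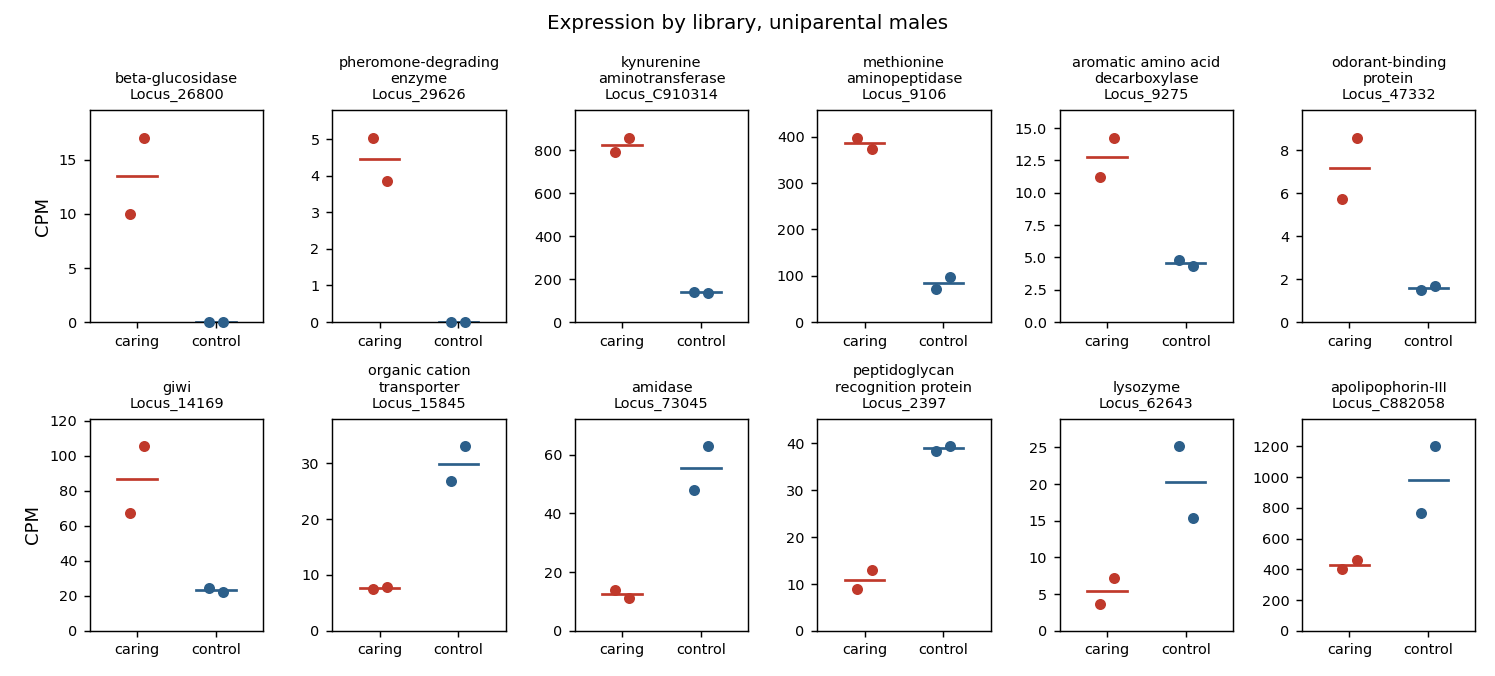
CPM (linear axis from 0) of 12 called loci in the caring libraries, left, and the control libraries, right, of uniparental males. Each point is a pool of 10 beetles and each line a group mean, with Locus_26800 at 10.0 and 17.1 CPM in caring males against 0.0508 and 0 CPM in controls, and Locus_15845 at 7.44 and 7.92 CPM against 26.8 and 33.0 CPM.

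Of 10 loci for digesting and moving sugars, 3 were called higher in caring males and 0 lower, with a median log2 change of 1.33, against 0 over all loci tested. This and the counts of the lists that follow stand against 13.6% called higher and 10.4% called lower among all 825 named loci, and 2.18% and 2.82% among all loci tested. The fitted changes of all 10 were positive, uncalled members included. Besides Locus_26800, the called members were a pair of members of solute carrier family 2, the glucose transporter family. Locus_C886444 was at 85.7 and 99.3 CPM in caring males and at 16.5 and 10.1 CPM in controls (2.79 ± 0.54, adjusted p = 0.00766), and Locus_C887820 at 232 and 270 CPM against 50.1 and 41.7 CPM (2.45 ± 0.63, adjusted p = 0.0328). The other beta-glucosidase, Locus_17596, was not called, with 2.29 and 2.60 CPM in caring males and 0.914 and 0.742 CPM in controls (1.55 ± 0.57, adjusted p = 0.126). An alpha-amylase, the starch-digesting enzyme, at Locus_22548 was at 5.15 and 3.43 CPM against 0.863 and 1.05 CPM (2.17 ± 0.76, adjusted p = 0.11). Locus_C887820 lost its call without each library, at adjusted p up to 0.185. The list gave 2 calls without caring replicate 1 and 1 call without each of the other libraries.

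Of 26 protease loci, 7 were called higher and 1 lower, against 13.6% and 10.4% of named loci, and the median log2 change was 1.42. The summed protease level went the other way, at 708 and 521 CPM in caring males and 890 and 898 CPM in controls. The strongest by p was Locus_330, like a chymotrypsin, a gut enzyme that cuts protein beside aromatic residues, at 2.71 and 4.61 CPM in caring males and 0 and 0.371 CPM in controls (4.38 ± 0.86, adjusted p = 0.00842). The trypsin-like Locus_C910868, was at 19.2 and 27.3 CPM against 6.60 and 9.34 CPM (1.55, adjusted p = 0.0217). The carboxypeptidase A-like Locus_C908212 had 2.52 and 3.47 CPM against 0.559 and 0.557 CPM (2.41, adjusted p = 0.0405), and it lost its call without each library. The protease that fell, Locus_C904384, had 0.496 and 0.394 CPM in caring males and 0.965 and 2.29 CPM in controls (-1.83, adjusted p = 0.0228). Without control replicate 1 the protease calls were 0 higher and 1 lower, and Locus_330 had an adjusted p of 0.119. Without caring replicate 2 there were 0 calls in the list, without caring replicate 1 there were 3 higher and without control replicate 2 there were 2 higher.

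Of 7 protease inhibitor loci, 4 were called higher and 0 lower, against 13.6% and 10.4% of named loci, with a median of 1.84, or 0.85 with the member that had no control reads set at its bound. Locus_C851085, like ixodidin, an inhibitor of chymotrypsin and elastase known from tick blood cells, was at 137 and 104 CPM in caring males and at 13.2 and 28.2 CPM in controls (2.55 ± 0.55, adjusted p = 0.0145). The dipetalogastin-like Locus_24374, named after a thrombin inhibitor of blood-feeding bugs, was at 72.5 and 125 CPM against 22.6 and 32.6 CPM (1.84 ± 0.44, adjusted p = 0.0241). Without control replicate 1 or caring replicate 2 none of the 7 was called, without caring replicate 1 there were 2 calls and without control replicate 2 there was 1. The adjusted p of Locus_C851085 was 0.181 without control replicate 1.

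Esterases, which split ester bonds in odours, hormones and toxins, gave 4 called higher and 0 called lower of 10, against 13.6% and 10.4% of named loci, with a median log2 change of 1.95. Beyond Locus_29626, the esterase Locus_78203 was at 76.7 and 127 CPM in caring males and at 6.40 and 14.6 CPM in controls (3.29 ± 0.70, adjusted p = 0.0137). Locus_34500, like the precursor of esterase 6, was at 19.4 and 23.9 CPM against 2.03 and 3.03 CPM (3.11 ± 0.68, adjusted p = 0.0163). The list gave 1 call without control replicate 1 or caring replicate 2, 2 without control replicate 2 and 3 without caring replicate 1.

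Cytochrome P450s, oxidases that act on plant and microbial toxins, hormones and cuticular lipids, were split in direction. Of 20 loci, 6 were called higher and 3 lower, against 13.6% and 10.4% of named loci, and the median was 0.22. Locus_72396, like CYP4g15, was at 7.83 and 12.5 CPM in caring males, against 0 and 0.0618 CPM in controls, a ratio of 362 with a 95% counting interval of 64.7 to 14339 (adjusted p = 0.00281). Locus_50252 was at 27.4 and 27.1 CPM against 0.305 and 0.495 CPM (6.10 ± 1.04, adjusted p = 0.00401). In the other direction, Locus_3063 had 0.0382 and 0 CPM in caring males and 0.965 and 1.79 CPM in controls, a ratio of 0.0145 with a 95% counting interval of 0.000359 to 0.0847 (adjusted p = 0.00822). Several P450 loci were therefore near absent in 1 group and present in the other. The calls were 4 higher and 0 lower without each of the other libraries, but 0 higher and 1 lower without control replicate 1, where the adjusted p was 0.0547 for Locus_72396 and 0.0768 for Locus_50252. Conjugating enzymes, which couple sugars, sulfate or glutathione to the products of such oxidation, were called higher at 1 of 7 loci, with a median of 0.04. That locus, the sulfotransferase-like Locus_38335, was at 5.88 and 4.14 CPM against 2.03 and 2.10 CPM (1.28 ± 0.36, adjusted p = 0.0495). It lost its call without each library, with an adjusted p of 0.263 without control replicate 1.

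Odorant-binding and chemosensory proteins are small soluble carriers of odours and other hydrophobic molecules. Of 17 such loci, 4 were called higher and 0 lower, against 13.6% and 10.4% of named loci, and the median was 1.39. The fitted change was positive at 16, uncalled loci included. Locus_47332, an odorant-binding protein, was at 5.73 and 8.59 CPM in caring males and at 1.47 and 1.67 CPM in controls (2.19 ± 0.34, adjusted p = 0.00252), and it kept its call without each library. Locus_C895814, like odorant-binding protein 3, was at 449 and 618 CPM against 65.0 and 175 CPM (2.15 ± 0.55, adjusted p = 0.0336). Locus_6761, like odorant-binding protein 1, had 88.6 and 117 CPM against 50.4 and 43.0 CPM (1.13 ± 0.30, adjusted p = 0.0384), and it lost its call without each library. The list gave 2 calls without control replicate 2 and 1 call without each of the others, and without control replicate 1 Locus_C895814 had an adjusted p of 0.281.

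Immune loci differed in direction even within a protein family. Of 12 antimicrobial and immune recognition loci, 1 was called higher and 3 lower, against 13.6% and 10.4% of named loci, with a median of -0.66. The calls were 1 higher and 0 lower without caring replicate 1, 0 and 1 without caring replicate 2, 0 and 2 without control replicate 2, and 0 and 1 without control replicate 1. Peptidoglycan recognition proteins bind bacterial cell walls, and the family went both ways. Locus_62915 was at 1.99 and 3.67 CPM in caring males and at 0.102 and 0.0618 CPM in controls, a ratio of 33.6 with a 95% counting interval of 11.3 to 165 (adjusted p = 0.019). Locus_2397 was at 8.90 and 13.0 CPM in caring males and at 38.5 and 39.4 CPM in controls (-1.83 ± 0.42, adjusted p = 0.0185). Neither family member held its call throughout, since Locus_62915 kept it only without caring replicate 1 and Locus_2397 lost it without each library, at adjusted p from 0.0722 to 0.161. Another member, Locus_C859016, was not called, with 3.24 and 5.16 CPM against 2.29 and 2.72 CPM (0.75 ± 0.35, adjusted p = 0.235).

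The remaining called immune loci fell. Locus_62643, like lysozyme, which digests bacterial cell walls, was at 3.66 and 7.13 CPM in caring males and at 25.1 and 15.4 CPM in controls (-1.91 ± 0.41, adjusted p = 0.0143), with adjusted p of 0.146 without caring replicate 1 and 0.157 without control replicate 1. Locus_C880072, like GNBP3, a sensor of fungal glucans, was at 4.54 and 4.45 CPM against 12.4 and 13.7 CPM (-1.53 ± 0.28, adjusted p = 0.00607). The more abundant thaumatin-like locus, Locus_75085, whose plant relatives act on fungi, was not called, with 42.8 and 42.8 CPM in caring males and 92.0 and 136 CPM in controls (-1.41 ± 0.42, adjusted p = 0.0644). The other one, Locus_8246, had 0.725 and 0.710 CPM against 0.102 and 0.186 CPM (2.30 ± 0.97, adjusted p = 0.201). Among 9 loci for melanization and tanning, 1 was called higher and 0 lower, with a median of -0.57. It was the multicopper oxidase Locus_C889574, at 274 and 294 CPM against 42.0 and 89.4 CPM (2.11 ± 0.58, adjusted p = 0.0453). It lost its call without each library, with an adjusted p of 0.33 without control replicate 1, so that the list then gave 0 calls.

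Blood proteins that store amino acids or carry lipid were called lower in caring males at 3 of 8 loci and higher at 0, against 10.4% and 13.6% of named loci, with a median of -1.20. Apolipophorin-III at Locus_C882058, which coats lipid particles in insect blood, was at 399 and 462 CPM in caring males and at 764 and 1200 CPM in controls (-1.19 ± 0.26, adjusted p = 0.0171). A 13 kDa hemolymph protein, Locus_C808225, was at 13.3 and 13.7 CPM against 30.7 and 48.2 CPM (-1.54 ± 0.31, adjusted p = 0.00971). Locus_C884326, like a retinoid- and fatty-acid-binding protein, the family of lipophorin precursors, was at 86.6 and 84.2 CPM against 219 and 174 CPM (-1.20 ± 0.30, adjusted p = 0.027). All 3 were present in every library, and each caring library was below each control, as groups did not overlap at 481 of the 482 called loci. The hexamerin-type storage protein arylphorin, Locus_3250, was not called, with 19.7 and 86.8 CPM in caring males and 470 and 3305 CPM in controls, so the groups did not overlap but replicates of each group differed several-fold (-5.15 ± 1.45, adjusted p = 0.0502). Leaving out control replicate 1 left 2 calls in this list and leaving out any other library left 0.

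Lipases, which release fatty acids from stored or eaten fat, were called higher at 1 of 8 loci and lower at 3, against 13.6% and 10.4% of named loci, with a median of -1.34. Locus_13851, like lipase member K, had 0.305 and 0.512 CPM in caring males and 3.15 and 3.03 CPM in controls (-2.90 ± 0.51, adjusted p = 0.00465), and Locus_28787, like lipase 3, had 5.803 and 6.03 CPM against 18.9 and 21.6 CPM (-1.77 ± 0.33, adjusted p = 0.00629). The pancreatic lipase-related Locus_C876658 was higher, at 23.7 and 30.5 CPM against 5.38 and 4.82 CPM (2.40 ± 0.53, adjusted p = 0.016, or 0.126 without control replicate 1). The third lower call, the lysosomal acid lipase Locus_C857706, rested on control replicate 1, with 2.37 and 3.90 CPM in caring males and 68.2 and 3.46 CPM in controls. Without that library its log2 change was -0.14 (adjusted p = 0.957), and the list gave 0 higher and 2 lower calls. It gave 1 and 0 without caring replicate 1, 0 and 1 without caring replicate 2, and 0 and 3 without control replicate 2. In fatty acid synthesis, 1 of 10 loci was called higher, and it rested on caring replicate 1. Fatty acid synthase Locus_6316 was at 51.4 and 4.41 CPM in caring males and at 3.25 and 2.66 CPM in controls, with a log2 change of 3.23 (adjusted p = 0.0487) that was 0.58 without caring replicate 1 (adjusted p = 0.811).

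Vitellogenin, the yolk precursor, was called lower at 9 of its 10 loci, with a median log2 change of -6.71. The calls rested on few libraries, and the size of the change on control replicate 1. Locus_C911252 was at 13.8 and 24.8 CPM in caring males, against 2406 CPM in control replicate 1 and 61.6 CPM in control replicate 2 (-6.001, adjusted p = 0.00971). Vitellogenin 2 at Locus_C909574 was at 6.03 and 15.0 CPM in caring males and at 991 and 30.7 CPM in controls (-5.60, adjusted p = 0.0101). Without control replicate 1 none of the 10 was called, the median was -2.02, and the 9 had adjusted p from 0.178 to 0.390. The 9 calls were also lost without caring replicate 1, with a median of -6.64, and without caring replicate 2, with a median of -6.54. Without control replicate 2 the 9 remained called, with a median of -7.66. The tenth, Vitellogenin-6 at Locus_C852695, was at 19.0 and 31.1 CPM in caring males and at 17.6 and 31.8 CPM in controls (0.02, adjusted p = 0.992). Among the called loci, 4 share a blast match and so may be pieces of a single gene. Locus_C909762, a hypothetical protein, followed the same library pattern, at 2.75 and 3.43 CPM against 798 and 14.4 CPM.

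**Figure D3:**
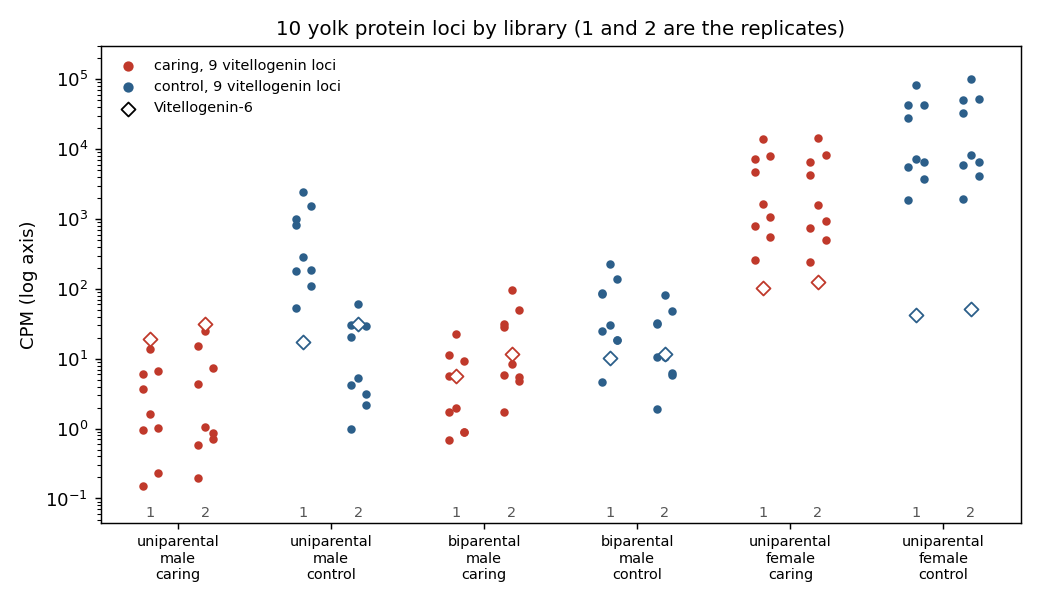
CPM (log axis) of the 10 vitellogenin loci in each library of uniparental males, biparental males and uniparental females, caring left of control, with 1 and 2 for the replicates and an open diamond for Vitellogenin-6. Control replicate 1 of uniparental males stands above the other male libraries at 9 of the loci, summing to 6590 CPM against 190 CPM in control replicate 2, and below the female libraries, whose sums are 37297 CPM or more.

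Several lists mark tissues of the head rather than a task. Muscle proteins were called lower at 2 of 54 loci and higher at 0, with a median of -0.30, and their summed level was 180420 and 199840 CPM in caring males and 231330 and 276020 CPM in controls. The called members were the ryanodine receptor, the channel that releases calcium for contraction, at Locus_C907534, with 251 and 236 CPM against 376 and 387 CPM (-0.65, adjusted p = 0.0149), and a myosin heavy chain at Locus_C880972, with 5.61 and 3.19 CPM against 19.6 and 14.7 CPM (-1.96, adjusted p = 0.0181). Without control replicate 1 their adjusted p was 0.101 and 0.143 in this order and the list gave 0 calls, as it did without caring replicate 2, while it gave 1 without caring replicate 1 or control replicate 2. Photoreceptor proteins gave no call among 6 loci, though all 6 fitted changes were positive, with a median of 1.37 and summed levels of 7715 and 6653 CPM in caring males against 2461 and 2418 CPM in controls. Rhodopsin 1/6-like Locus_C909800, the visual pigment, was at 4431 and 3752 CPM against 1285 and 1295 CPM (1.67 ± 0.83, adjusted p = 0.274). The visual and muscle sums thus separated the groups in opposite directions, and whether tissue makeup had a part in the other results was not tested.

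Other lists held few calls. There were 0 calls among 16 cuticle proteins and chitinases (median -0.91), 0 among 7 ribosomal proteins and an elongation factor (-0.18), and 0 among 9 respiratory chain loci (0). Takeout-like proteins, carriers of small lipids that vary with feeding in flies, gave 0 calls among 3 loci, all near 0 CPM. Of 10 neuronal and neuroendocrine loci, 1 was higher, Locus_9275, and 1 was lower. The lower one, Locus_C895044, like the pore subunit of a voltage-gated calcium channel, was at 1.07 and 1.34 CPM in caring males and at 3.35 and 3.28 CPM in controls (-1.46 ± 0.35, adjusted p = 0.0243), and it lost its call without each library, with an adjusted p of 0.143 without control replicate 1. The insulin-related peptide Locus_78637 was at 3.55 and 3.59 CPM against 3.71 and 6.74 CPM (-0.54 ± 0.48, adjusted p = 0.573). Transposon-derived loci were called at 2 of 9, with Locus_15025 higher (1.68, adjusted p = 0.0252, or 0.253 without control replicate 1) and Locus_C912046 lower (-1.22, adjusted p = 0.0328). Only the call of Locus_C912046 without control replicate 1 was kept when a library was left out.

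Transcription factors were called at 2 of 12 loci. Locus_C911560, like runt, a patterning gene that in flies also acts in neurons, was at 2.25 and 2.05 CPM in caring males and at 10.8 and 15.5 CPM in controls (-2.60 ± 0.46, adjusted p = 0.00481), and its adjusted p was 0.0716 without caring replicate 2. Locus_1719, like maxillopedia, the Hox gene that specifies mouthparts, was at 13.1 and 12.7 CPM against 5.38 and 7.55 CPM (1.003 ± 0.19, adjusted p = 0.00766). Its adjusted p was 0.0503 without caring replicate 2 and 0.129 without control replicate 1.

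**Figure D4:**
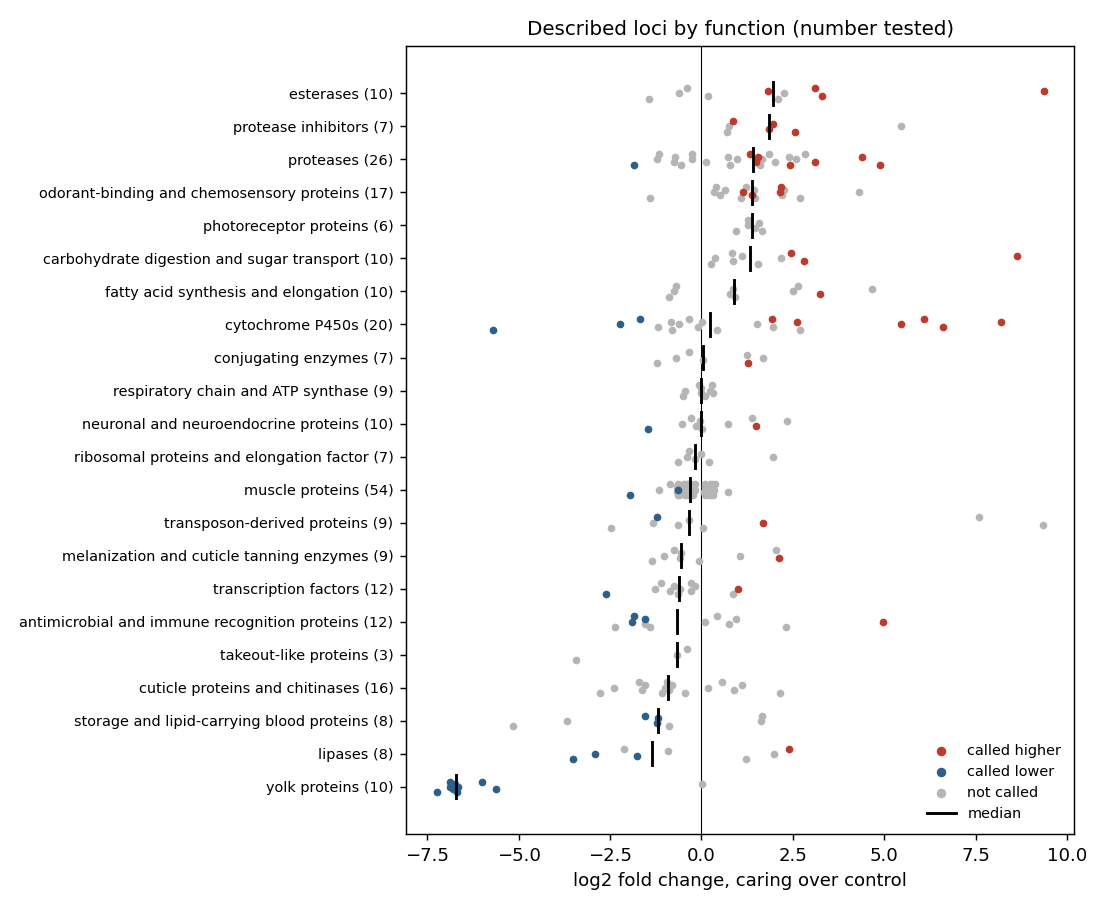
Log2 fold change of caring over control males (horizontal axis) for each tested locus of each named list (rows, with the number tested), red where called higher, blue where called lower and grey where not called, with a bar at the list median. Carbohydrate loci have a median of 1.33 and protease loci of 1.42, P450 loci lie on both sides of 0, and 9 yolk loci lie apart near -6.71.

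Much of the change lay outside the named loci. Loci without a name made up 8823 of those tested and gave 284 calls (3.22%), 98 of them higher (1.11%) and 186 lower (2.11%), while the 825 named loci gave 198 (24%), 112 higher (13.6%) and 86 lower (10.4%). Unnamed called loci moved less, with medians of 0.65 and -0.72, against 2.005 and -1.54 for the named ones. The named loci are those the study chose for differing with care in the same libraries. A larger share of calls and larger changes among them are therefore built in by that choice. The largest difference in CPM among called loci, a measure that favours long and abundant transcripts, was at the hypothetical protein Locus_C913802, with 6614 and 6938 CPM in caring males and 11898 and 12208 CPM in controls (-0.83 ± 0.22, adjusted p = 0.0401). It lost its call without each library. Locus_65710 showed how far caring libraries could differ, at 6.87 and 66.1 CPM against 0.102 and 0.124 CPM (8.27, adjusted p = 0.00385). Locus_28495 had no reads in caring males and 0.914 and 1.98 CPM in controls, which made it at least 12.4-fold lower (adjusted p = 0.0244). It also lost its call without each library, at adjusted p from 0.0676 to 0.147.

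A few metabolic loci outside the lists were chosen after their values were seen. Locus_12649, like 4-hydroxyphenylpyruvate dioxygenase, a tyrosine-degrading enzyme, was at 377 and 542 CPM in caring males and at 190 and 212 CPM in controls (1.19, adjusted p = 0.04), and it lost its call without each library. Locus_C870674, like diphosphomevalonate decarboxylase, a step toward juvenile hormone and other isoprenoids, was at 117 and 222 CPM against 53.3 and 43.6 CPM (1.81, adjusted p = 0.023). Locus_38423, like glucose dehydrogenase, was at 8.09 and 8.002 CPM against 0.305 and 0.928 CPM (3.74, adjusted p = 0.0028). Locus_26576, like an aquaporin, a water channel, was at 34.2 and 26.8 CPM against 10.3 and 11.8 CPM (1.47, adjusted p = 0.0056). All 4 were higher in each caring library than in each control, as groups did not overlap at 481 of the 482 called loci.

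Whether males changed as females do was asked in uniparental females, whose libraries are all different. Caring uniparental females differed from their controls at 1076 loci (11.2%), 348 higher (3.61%) and 728 lower (7.55%). Of the 210 loci called higher in males, 117 were also called higher in females, which is 55.7% of the male list and 33.6% of the female list. Of the 272 called lower in males, 127 were also called lower in females, or 46.7% and 17.4% of the lists. None was called in opposite directions. At the loci that males had higher, the median log2 change was 1.13 in males and 0.77 in females, and at the loci that males had lower it was -0.83 and -0.56. These loci were chosen on the male change, which is therefore the larger by selection.

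Among the loci called in males, some were also called in females and some were not. The beta-glucosidase Locus_26800 was at 6.20 and 7.13 CPM in caring females and had no reads in control females, which made it at least 39.7-fold higher (adjusted p = 6.57e-05). The aminotransferase Locus_C910314 had a log2 change in females of 1.62 (adjusted p = 0.0033), the methionine aminopeptidase Locus_9106 of 3.81 (adjusted p = 2.17e-05), and the cation transporter Locus_15845 of -2.04 (adjusted p = 2.17e-05). The female change was not called at Locus_C915444 (0.24, adjusted p = 0.664), Locus_16166 (0.30, adjusted p = 0.436) or Locus_C901292 (-0.020, adjusted p = 0.981), which males had higher. The Piwi-like Locus_14169 was not called in females either, at 0.38 ± 0.26 (adjusted p = 0.435), and the difference of the male minus the female change, 1.51, did not pass adjustment (adjusted p = 0.127). By list, muscle proteins were called lower at 53 of 54 loci in females with a median of -1.37, against 2 of 54 in males. Over all 825 named loci, females had 229 called higher and 269 lower. The male minus female difference had an unadjusted p under 0.05 at 260 of the 825, with 183 positive. Since the study chose named loci partly on the female change in these libraries, contrasts of the sexes by list are not independent of that choice. The male minus female difference had a median of 1.16 over the 54, and 43 had an unadjusted p under 0.05, all with a positive difference, but 0 passed adjustment. Immune loci were called higher at 7 of 12 and lower at 2 in females, with a median of 2.44, where males had 1 and 3, and 0 of the differences passed adjustment.

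Tested as a difference, the male caring change differed from the female change at 2 loci (0.0207%), with 867 (8.99%) at an unadjusted p under 0.05. Locus_18605 was at 241 and 267 CPM in caring males and at 149 and 164 CPM in control males, while caring females had 112 and 108 CPM and control females 132 and 153 CPM. Its difference of log2 changes was 1.08 ± 0.17 (adjusted p = 0.0459). At Locus_20530 the values were 464 and 447 CPM in caring males and 286 and 328 CPM in control males, against 145 and 135 CPM in caring females and 275 and 300 CPM in control females, a difference of 1.61 ± 0.26 (adjusted p = 0.0459). The male change alone was 0.70 (adjusted p = 0.00448) at Locus_18605 and 0.57 (adjusted p = 0.0776) at Locus_20530.

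**Figure D5:**
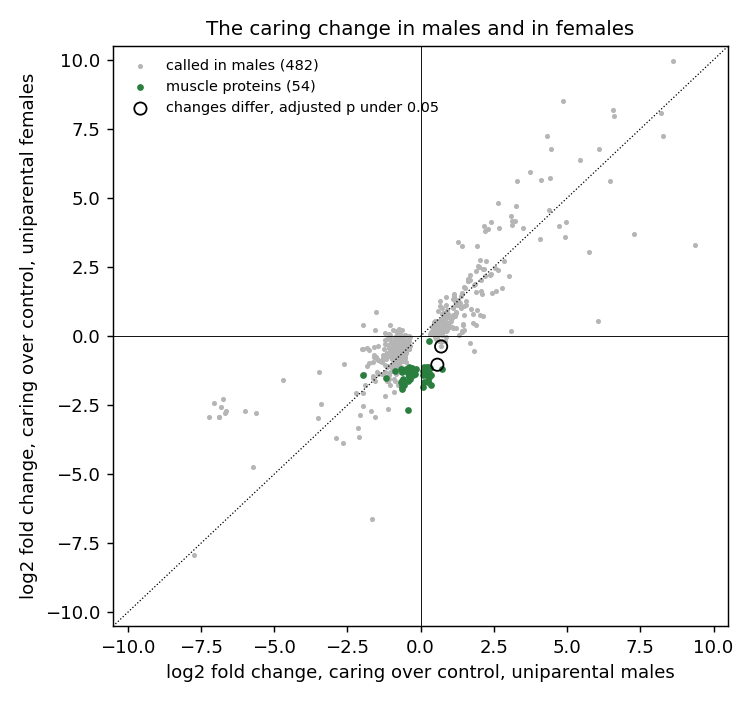
Log2 fold change of caring over control in uniparental females (vertical axis) against that in uniparental males (horizontal axis), in grey for the 482 loci called in males and in green for the 54 muscle loci, with a dotted line of equal change and rings at the 2 loci whose changes differ by test. Muscle loci have a median of -0.30 in males and -1.37 in females, and most called loci lie in the quadrants of the same sign.

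Against males caring beside a mate, the uniparental change was tested at each locus. Caring biparental males differed from their own controls at 2 loci (0.0207%), 1 higher (0.0104%) and 1 lower (0.0104%), with 754 (7.82%) at an unadjusted p under 0.05. The uniparental minus biparental difference passed at 0 loci, with 558 (5.78%) at an unadjusted p under 0.05, 3 by edgeR's likelihood ratio test and 15 by DESeq2. At the loci called in uniparental males, the median change in biparental males was 0.42 for the higher and -0.27 for the lower loci. These loci were chosen on the uniparental male change, which is therefore enlarged by selection. Locus_15845 was called lower in both, at -1.96 in uniparental and -1.13 in biparental males (adjusted p = 0.0268 in biparental males). Locus_C912054 was called higher in both, at 6.47 in uniparental and 6.36 in biparental males (adjusted p = 0.0268 in biparental males). It was at 3.25 and 4.29 CPM in caring biparental males, against 0 and 0.0791 CPM in their controls. Locus_26800 was at 1.36 and 2.70 CPM in caring biparental males and had no reads in their controls, which made it at least 8.63-fold higher, and it was not called there (adjusted p = 0.0569). The control males of the uniparental and biparental treatments themselves differed at 4040 loci (41.9%), so each change was taken against its own control.

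Males sampled after they had left the brood give a second reference for the same 2 caring libraries. Caring uniparental males differed from post-caring uniparental males at 350 loci (3.63%), 124 higher (1.29%) and 226 lower (2.34%). Of the loci called against controls, 87 of the 210 higher and 86 of the 272 lower were called in the same direction against post-caring males. The caring libraries are shared between the comparisons, so this overlap is not independent and values are set side by side. The beta-glucosidase Locus_26800 had no reads in either post-caring library, against 10.0 and 17.1 CPM in caring males, and Locus_C910314 was at 791 and 858 CPM in caring males and at 196 and 195 CPM after care. Locus_15845 was at 7.44 and 7.92 CPM in caring males and at 26.4 and 29.5 CPM after care. The thaumatin-like Locus_75085 was at 42.8 and 42.8 CPM in caring males and at 335 and 456 CPM after care, above its 92.0 and 136 CPM in controls. Post-caring males set against controls gave 0 calls, with 776 loci (8.04%) at an unadjusted p under 0.05.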

How the data were processed

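Per the labels and the methods, reads from pooled heads were trimmed with Trimmomatic 0.30, assembled without a genome, and assigned to loci with a blast match in arthropods by Bowtie2 and RSEM. The authors deposited the expected counts of each locus in each library, not normalized and not pooled. Here they were rounded and analysed with edgeR 4.0.16 in R 4.3.3. The function filterByExpr (minimum count 10) removed 1755 of 11403 loci. TMM factors and a mean for each of 12 groups were fitted over all 24 libraries, which left 12 residual degrees of freedom, and each comparison used the quasi-likelihood test with Benjamini-Hochberg adjustment at 0.05. Fold changes used a prior count of 0.125, and a limit was set at 3 counts per library where a group had no reads. Counting intervals are exact at 95% and cover counting error only. Names came from the study's annotated list.

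The loci named were, among called loci, the 10 highest and 10 lowest with an informative name, the 3 highest and 3 lowest without, the 5 of each direction with the largest CPM difference, the member of lowest p in each list, loci of families such as vitellogenin, and loci passing a difference test. Other list members and loci were named after their values were seen. The comparison, the lists and this rule were chosen with earlier results of these data known. Contig sequences were not used here, so no sequence is shown. Alternatives tried were DESeq2 1.42.0, edgeR's likelihood ratio test as the study used, RLE scaling, other filters, unrounded counts, other sets of libraries, pooled controls, a replicate block and each library left out. The scripts were tested on simulated data.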

Additional observations from a re-analysis of the deposited data

Results flagged for a closer look

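At Locus_18605 and Locus_20530 the change with care differed between uniparental males and uniparental females by a direct test of that difference. At Locus_18605 the log2 change was 0.70 ± 0.12 in males and -0.38 ± 0.12 in females, a difference of 1.08 ± 0.17 (SE, edgeR adjusted p = 0.0459). At Locus_20530 it was 0.57 ± 0.18 in males and -1.04 ± 0.18 in females, a difference of 1.61 ± 0.26 (edgeR adjusted p = 0.0459). Neither has an informative name, and with RLE scaling 0 loci passed this test.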

How the results depend on the processing

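Of the 482 loci called in caring males (210 higher, 272 lower), the numbers under other settings were 754 (325 and 429) by edgeR's likelihood ratio test, 817 (357 and 460) by DESeq2, 1025 (448 and 577) in a fit of the 12 uniparental libraries and 1518 (574 and 944) with the controls of uniparental and biparental males as a single group. In a fit of the 12 male libraries the total was 306, with 156 lower. RLE scaling, no filter, a stricter filter, unrounded counts and a fit of the compared libraries alone gave 432 to 505. With each library left out the total was 75 to 171, the higher 26 to 121 and the lower 36 to 111. Caring over post-caring males, at 350, gave 546 with the likelihood ratio test, 566 with the uniparental libraries, 606 with the compared libraries and 39 to 136 with a library left out. The uniparental minus biparental difference, at 0, gave 3 and 15 by the likelihood ratio test and DESeq2, 3166 with pooled controls, which then sets caring against caring males, and 0 to 8 with a library left out. The male minus female difference, at 2, gave 104 and 157 by the same tests, 31 with the uniparental libraries, 0 with the compared libraries or RLE scaling and 0 to 10 with a library left out. The cause of these shifts was not tested.

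The main fit did not pair libraries by replicate number. Replicate numbers are those of the sample titles. For control uniparental males, the titles and the deposited tables give crossed numbers, so the pairing by number is uncertain there. Deviations of same-numbered caring and control libraries correlated at r = 0.16. Over the 66 pairs of groups r ranged from -0.637 to 0.607, and 31 pairs exceeded 0.1. Such correlations cannot decide whether the libraries were paired. With a replicate block in the fit of all libraries 606 loci were called, and with the block in the compared libraries alone 1145 (517 and 628). The block gave 942 loci for caring over post-caring males with the compared libraries alone. The male minus female difference passed at 11 loci with the block in all libraries and at 146 in the compared ones.

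Of the 53 called loci picked by the rule given above for the loci named, 8 kept call and direction throughout and 0 changed sign. With a library left out, the sign was all but fixed wherever the groups did not overlap. Uncalled loci whose change turned round or reached 0 were Locus_C894552, at 0.082 with pooled controls, and 4 loci over the fits that left out a library. These were Locus_25807, between -0.036 without caring replicate 2 and 0.77, Locus_C852695, between -0.36 without caring replicate 2 and 0.53, with -0.35 without control replicate 1, Locus_3293, between -1.32 and 0.35 without control replicate 2, and Locus_20763, between -3.35 and 0 without control replicate 2. Leaving libraries out of the lists was chosen after seeing the data. The spread between libraries, where chi-square over its degrees of freedom was 37.7 in caring males and 55.8 in controls, limits precision more than depth does, except at loci with a few reads.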
